A study of Homo sapiens with 15 samples.

Results

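TLK1, FAM114A1, DCAF4, ANKS1B, CASP16P, ZFTA, USP26 and LRRC74A are 8 genes, of 17687 measured, that were picked from earlier results of these data because they lay off the level of vehicle-treated cells in drug-treated cells. The platform annotation gave 1 probe set to each of them. RNA of C42B cells, a prostate cancer line derived from LNCaP that grows without androgen, was hybridised to 15 whole-transcript Affymetrix arrays after 6 h of exposure. The groups were 0.125% dimethyl sulfoxide (DMSO, the vehicle, 3 arrays), 10 µM enzalutamide (2 arrays), 15 µM PF-543 (3 arrays), 15 µM ABC294640 (1 array), 10 µM enzalutamide with 15 µM PF-543 (3 arrays) and 10 µM enzalutamide with 15 µM ABC294640 (3 arrays). Enzalutamide blocks the androgen receptor, PF-543 inhibits sphingosine kinase 1 and ABC294640 (opaganib) inhibits sphingosine kinase 2. The labels give no DMSO percentage for the treated wells. They do not state that replicates came from different cultures, and p-values cover only the spread among these samples, which could be technical.

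The 8 genes form no known pathway. TLK1 is a nuclear serine/threonine kinase that phosphorylates the histone chaperone ASF1 and the kinase NEK1, and so acts in chromatin assembly and the DNA damage response. DCAF4 is a WD40-repeat substrate receptor of the CUL4-DDB1 ubiquitin ligase, USP26 is an X-linked deubiquitinase best known from testis and reported to act on the androgen receptor, and ZFTA is a zinc finger protein known as a fusion partner of RELA in ependymoma. ANKS1B (AIDA-1) is a scaffold of the postsynaptic density, CASP16P is a transcribed caspase pseudogene, FAM114A1 (Noxp20) is a little-studied protein described in developing neurons, and LRRC74A is a leucine-rich repeat protein of poorly known function.

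The 3 DMSO arrays stood apart from the 12 treated arrays over the whole transcriptome, at 18.9 to 24.8 on the first principal component against -11.6 to 0.03 (15.3% of the variance). The first quartile of log2 signal also differed, at 4.65 to 4.69 in DMSO and 4.57 to 4.63 in treated cells. What part this separation has in the differences from DMSO was not tested, and vehicle, handling and drug cannot be told apart in a difference that every treated group shares. All 8 measured markers of prostate luminal epithelium, among them KLK3, KRT8 and EPCAM, lay above the array median. Leukocyte, fibroblast, endothelial and neuroendocrine lists had 4 measured markers each, of which only the fibroblast gene COL1A2 did. The mean level of the fibroblast markers ran from 6.41 to 6.60 in DMSO and from 6.05 to 6.29 in treated cells, and its part in the differences from DMSO was not tested. In RNA of whole wells, fewer cells of a kind and less RNA per cell cannot be told apart.

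**Figure D1:**
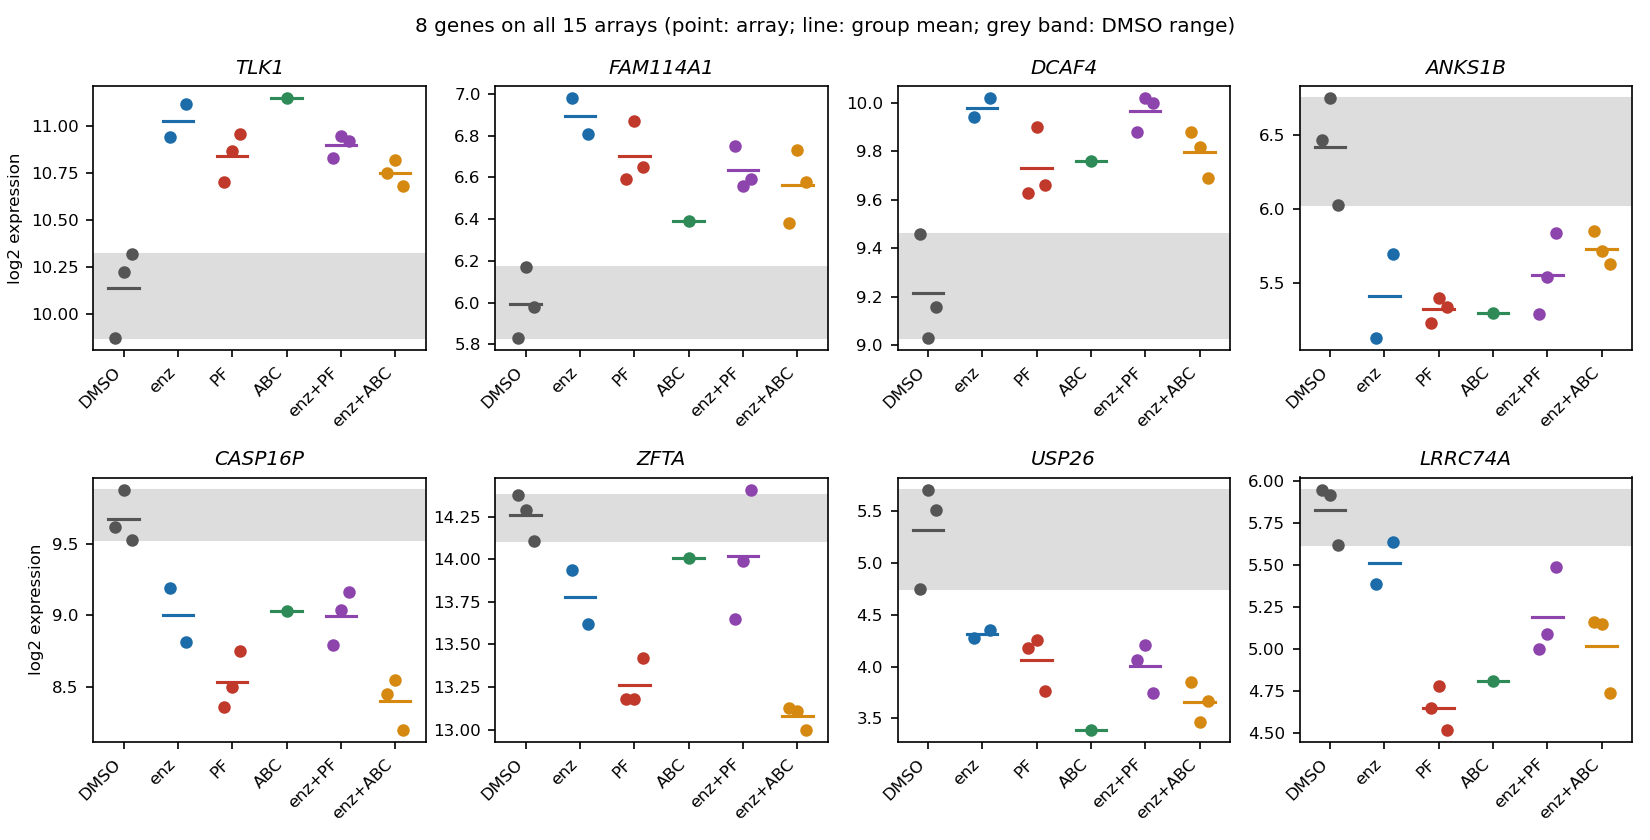
Log2 expression of the 8 genes on each of the 15 arrays, by group (enz, enzalutamide; PF, PF-543; ABC, ABC294640). Points are arrays, lines group means and the grey band the range of the 3 DMSO arrays. The treated arrays clear the band for 6 genes, while 1 ZFTA array lies above it and 1 LRRC74A array lies inside it.

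Across the treated arrays, 6 of the 8 genes had all 12 arrays on one side of all 3 DMSO arrays: TLK1, FAM114A1 and DCAF4 above, and ANKS1B, CASP16P and USP26 below. The rule that chose the genes used this contrast, so the count is a description and no test is given. Over all genes, 3.45% (611 of 17687) had no overlap, 2.03% (359) above and 1.42% (252) below. The label did not hold for the other members on every array. ZFTA had 11 of 12 treated arrays below DMSO and 1 above it, and LRRC74A had 11 of 12 below DMSO and 1 within its range.

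TLK1, the chromatin kinase, was the farthest above DMSO of the higher genes, by log2 0.80 averaged over the treated groups. Its log2 values were 9.87, 10.22 and 10.32 in DMSO, 10.94 and 11.12 in enzalutamide, 10.70, 10.87 and 10.96 in PF-543, and 11.15 on the ABC294640 array. In the combinations it read 10.83, 10.95 and 10.92 with PF-543 and 10.75, 10.82 and 10.68 with ABC294640. The lowest treated array was 0.36 above the highest DMSO array. Group means exceeded DMSO by log2 0.61 (SE 0.12) in enzalutamide with ABC294640 up to 1.01 (SE 0.17) on the ABC294640 array, that is by 1.53-fold to 2.02-fold. Among treated groups the order was enzalutamide with ABC294640, PF-543, enzalutamide with PF-543, enzalutamide and ABC294640, and each step's 95% interval held 0.

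FAM114A1, the Noxp20 protein, was higher by log2 0.64 on the same average. It read 5.83, 6.17 and 5.98 in DMSO. It read 6.98 and 6.81 in enzalutamide, 6.59, 6.87 and 6.65 in PF-543, 6.39 on the ABC294640 array, 6.75, 6.56 and 6.59 in enzalutamide with PF-543, and 6.38, 6.73 and 6.58 in enzalutamide with ABC294640. The groups did not overlap DMSO, but the gap was only 0.21. Enzalutamide alone was highest, at log2 0.90 (SE 0.14, 1.87-fold) over DMSO, and the ABC294640 array was lowest, at 0.40 (SE 0.17, 1.32-fold). Every step between neighbours in the order of treated groups had a 95% interval that held 0.

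DCAF4, the ligase receptor, varied least among treated groups, whose means spanned 0.25. Its values were 9.46, 9.03 and 9.16 in DMSO and 9.94 and 10.02 in enzalutamide. They were 9.63, 9.90 and 9.66 in PF-543, 9.76 on the ABC294640 array, 9.88, 10.02 and 10 in enzalutamide with PF-543, and 9.88, 9.82 and 9.69 in enzalutamide with ABC294640. All treated arrays lay above DMSO, by log2 0.51 (SE 0.12) in PF-543 to 0.76 (SE 0.13) in enzalutamide on group means. Of the 10 pairs of treated groups, none had a 95% interval without 0 for DCAF4.

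**Figure D2:**
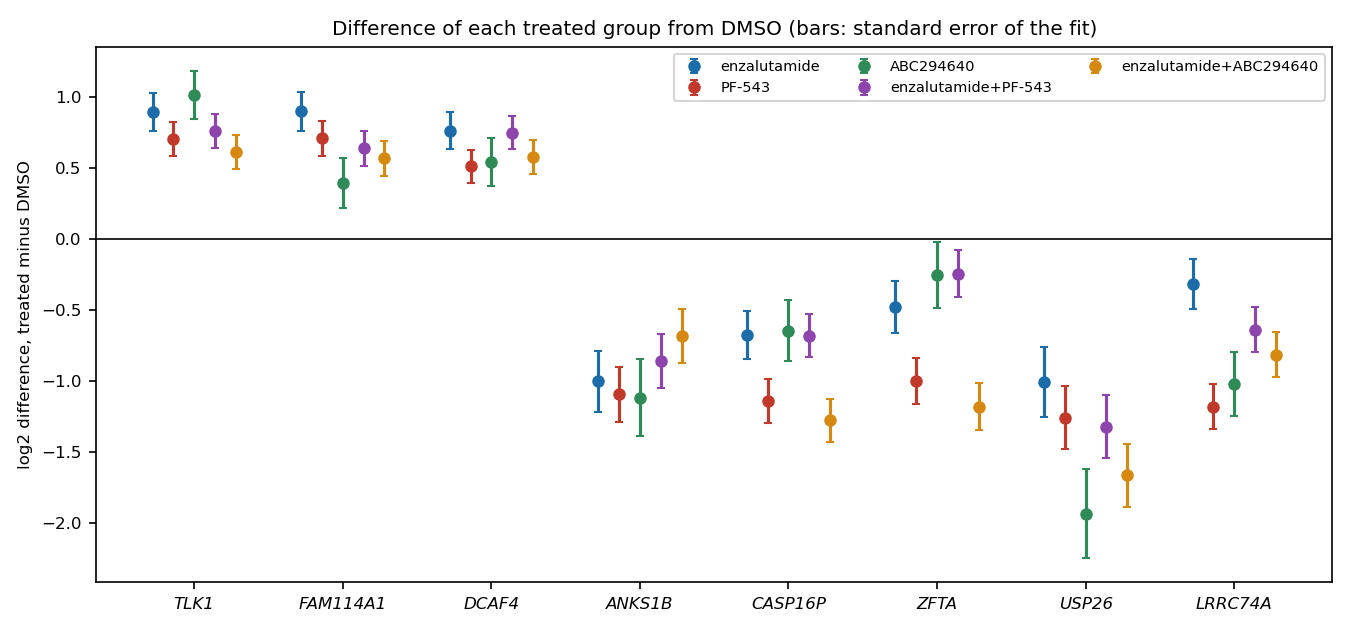
Log2 difference of each treated group's mean from the DMSO mean for the 8 genes, with the standard error of the limma fit as bars. TLK1, FAM114A1 and DCAF4 lie above 0 and the other genes below it, from 1.01 for TLK1 on the ABC294640 array to -1.93 for USP26 on the same array.

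USP26, the deubiquitinase, was the farthest below DMSO, by a mean log2 of -1.44. It read 4.75, 5.71 and 5.51 in DMSO, 4.28 and 4.35 in enzalutamide, 4.18, 4.26 and 3.76 in PF-543, and 3.39 on the ABC294640 array. In the combinations it read 4.06, 4.21 and 3.74 with PF-543 and 3.85, 3.46 and 3.67 with ABC294640. All treated arrays were below DMSO, although DMSO itself spread over 0.96. The difference ran from log2 -1.01 (SE 0.25) in enzalutamide to -1.93 (SE 0.31) on the ABC294640 array, and stood at -1.66 (SE 0.22) in enzalutamide with ABC294640. Every treated value was at or below 4.35, under the lowest first quartile of signal of any array (4.57), and no probe set was judged against background.

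ANKS1B, the postsynaptic scaffold, was lower by a mean log2 of -0.95. It read 6.47, 6.75 and 6.03 in DMSO. It read 5.13 and 5.70 in enzalutamide, 5.23, 5.40 and 5.34 in PF-543, 5.30 on the ABC294640 array, 5.29, 5.54 and 5.84 in enzalutamide with PF-543, and 5.85, 5.72 and 5.63 in enzalutamide with ABC294640. The gap to DMSO was 0.18, smaller than the DMSO range of 0.72. Group means were lower than DMSO by 1.61-fold in enzalutamide with ABC294640 (log2 -0.68, SE 0.19) to 2.17-fold on the ABC294640 array (log2 -1.12, SE 0.27). None of the 10 pairs of treated groups had a 95% interval without 0.

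CASP16P read 9.62, 9.88 and 9.53 in DMSO. It read 9.19 and 8.81 in enzalutamide, 9.03 on the ABC294640 array and 8.79, 9.04 and 9.16 in enzalutamide with PF-543, with group means from 9 to 9.03. It read 8.36, 8.50 and 8.75 in PF-543 and 8.45, 8.55 and 8.20 in enzalutamide with ABC294640, so the highest PF-543 array lay just under the lowest array of enzalutamide with PF-543. The difference from DMSO was log2 -1.14 (SE 0.15) in PF-543 and -1.28 (SE 0.15) in enzalutamide with ABC294640, against -0.65 (SE 0.22) to -0.68 (SE 0.15) in the other groups.

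ZFTA, the zinc finger protein, read 14.38, 14.29 and 14.11 in DMSO, 13.94 and 13.62 in enzalutamide, 14.01 on the ABC294640 array, and 13.65, 13.99 and 14.41 in enzalutamide with PF-543. It read 13.18, 13.18 and 13.42 in PF-543 and 13.13, 13.11 and 13 in enzalutamide with ABC294640. Enzalutamide with PF-543 overlapped DMSO through its replicate 3, and its mean was log2 -0.24 (SE 0.16) from DMSO. PF-543 alone was at -1 (SE 0.16, 2-fold lower) and enzalutamide with ABC294640 at -1.18 (SE 0.16, 2.27-fold lower), so the treated group means spanned 0.94, more than their mean distance of 0.63 from DMSO.

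LRRC74A followed another order. It read 5.95, 5.92 and 5.62 in DMSO, 5.39 and 5.64 in enzalutamide, 5, 5.09 and 5.49 in enzalutamide with PF-543, and 5.16, 5.15 and 4.74 in enzalutamide with ABC294640. The ABC294640 array was at 4.81, and PF-543 was lowest at 4.65, 4.78 and 4.52. Enzalutamide replicate 2 lay within the DMSO range, and the group was log2 -0.32 (SE 0.18) from DMSO against -1.18 (SE 0.16) in PF-543.

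Promoter sequence was read from RefSeq (GRCh38.p14) for the members, to set those above DMSO beside those below it, as the 250 bases before the annotated start. Of the 8 members 5 matched: FAM114A1, DCAF4, ZFTA, LRRC74A and ANKS1B, the last with 7 starts. TLK1, CASP16P and USP26 were not matched. The 4 members with 1 start are shown, 2 that were higher (FAM114A1 at chr4:38867556-38867805 and DCAF4 at chr14:72926214-72926463, both plus strand) and 2 that were lower (ZFTA at chr11:63768776-63769025, minus strand, and LRRC74A at chr14:76826158-76826407, plus strand). Capitals mark any match, on either strand, to 6 motifs: the TATA box (TATAAA), the CCAAT box (CCAAT), the GC box (GGGCGG), the cAMP response element (TGACGTCA), the E-box (CACGTG) and an androgen receptor half-site (AGAACA).
FAM114A1: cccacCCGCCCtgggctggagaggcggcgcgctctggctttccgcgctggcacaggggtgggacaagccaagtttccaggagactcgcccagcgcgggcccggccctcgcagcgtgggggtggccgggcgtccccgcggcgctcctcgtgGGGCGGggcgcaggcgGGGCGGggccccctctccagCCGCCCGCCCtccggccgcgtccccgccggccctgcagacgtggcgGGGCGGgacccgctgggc
DCAF4: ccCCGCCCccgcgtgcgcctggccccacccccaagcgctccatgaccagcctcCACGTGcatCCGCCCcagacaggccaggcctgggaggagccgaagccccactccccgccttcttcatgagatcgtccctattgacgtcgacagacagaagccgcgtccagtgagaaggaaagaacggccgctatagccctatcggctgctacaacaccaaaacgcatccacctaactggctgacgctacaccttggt
ZFTA: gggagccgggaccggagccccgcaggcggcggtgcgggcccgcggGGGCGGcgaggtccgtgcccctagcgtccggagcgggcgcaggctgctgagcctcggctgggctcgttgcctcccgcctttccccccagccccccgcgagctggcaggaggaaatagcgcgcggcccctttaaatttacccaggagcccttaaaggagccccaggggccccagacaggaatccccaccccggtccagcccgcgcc
LRRC74A: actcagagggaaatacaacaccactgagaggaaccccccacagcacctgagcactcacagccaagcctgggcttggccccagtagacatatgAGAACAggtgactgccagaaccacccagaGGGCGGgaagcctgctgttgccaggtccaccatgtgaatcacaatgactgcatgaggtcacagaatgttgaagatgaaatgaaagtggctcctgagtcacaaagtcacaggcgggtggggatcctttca
All 4 windows held the GC box, 6 times in FAM114A1 (some overlapping), 2 times in DCAF4 and once each in ZFTA and LRRC74A, and 42.6% of all 35116 RefSeq promoter windows of this length hold it. The E-box was found in DCAF4 (6.34% of all windows) and the half-site in LRRC74A (12.4%). The TATA box, CCAAT box and cAMP response element, in 10.7%, 32% and 1.65% of all windows, matched none of the 4. The 7 ANKS1B windows, not printed, differed among themselves: 3 held no GC box, with a GC content of 36% to 48.8%, and the others held 1 to 3, with 70% to 87.2%. None of them held another of the 6 motifs. GC content was 81.2% in FAM114A1, 74.8% in ZFTA, 63.6% in DCAF4 and 54% in LRRC74A, against a median of 58%. A match describes letters only, and the absence of one says nothing about a factor.

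Whether treated groups differed from each other was tested without DMSO arrays in the differences. By limma's moderated F test over the 5 treated groups, 0 of the 8 members passed an adjusted p of 0.05 (Benjamini-Hochberg over all genes), where 0.351% of all genes (62) did. The smallest adjusted p was 0.0707 for ZFTA, followed by 0.224 for LRRC74A and 0.264 for CASP16P. These 3 had an unadjusted p of 0.000328, 0.0033 and 0.00468 by limma, where 9.48% of all genes were under 0.05. The other genes had an adjusted p from 0.552 for USP26 to 0.781 for ANKS1B. The members were picked from earlier results in which falls in PF-543 and rises in enzalutamide counted. That choice enters the differences between treated groups that hold those groups, among them the PF-543 pairs given below.

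Over the 10 pairs of treated groups, 0 of 80 member-by-pair tests passed (limma, adjusted over all genes within a pair), against 0.15% of all gene-by-pair tests. By pair, the share of all genes called was 0.407% for PF-543 against enzalutamide with ABC294640, 0.39% for enzalutamide against PF-543, 0.311% for PF-543 against enzalutamide with PF-543, 0.119% for ABC294640 against enzalutamide with PF-543, and 0.0961% between the combinations. It was 0.0792% for ABC294640 against enzalutamide with ABC294640, 0.0565% for enzalutamide against ABC294640, 0.0283% for enzalutamide against enzalutamide with PF-543, 0.017% for PF-543 against ABC294640, and 0% for enzalutamide against enzalutamide with ABC294640. Without adjustment 22 of the 80 had a p under 0.05, against 7.38% of all gene-by-pair tests. They were 6 each for ZFTA and CASP16P, 5 for LRRC74A, 2 each for FAM114A1 and USP26, and 1 for TLK1. The median absolute difference between 2 treated groups was 0.16 to 0.42 over the members and 0.11 to 0.15 over all genes. Against DMSO it was 0.72 to 1.05 over the members and 0.14 to 0.16 over all genes.

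The smallest adjusted p for a pair belonged to LRRC74A, which was 1.82-fold higher in enzalutamide than in PF-543 (log2 0.87, 95% interval 0.48 to 1.25, limma adjusted p = 0.0609). Their arrays did not overlap. LRRC74A read 4.52 to 4.78 in PF-543, near the first quartile of signal of those arrays (4.59 to 4.61), and no probe set was judged against background. This pair passed in 3 alternatives and not in 22. Its limma adjusted p was 0.0308 with a robust and trended prior, 0.0398 without the dimmest 25% of genes and 0.0443 without enzalutamide with PF-543 replicate 3. It was 0.397 without enzalutamide replicate 2, which left 1 enzalutamide array assumed to vary like the others. LRRC74A was also higher in enzalutamide with PF-543 than in PF-543 alone, by log2 0.54 (95% interval 0.20 to 0.88, limma adjusted p = 0.285), again without overlap. Falls in PF-543 counted in the choice of members, so that choice enters both of these pairs. The difference between enzalutamide with PF-543 and enzalutamide with ABC294640 was 0.18 (95% interval -0.16 to 0.52).

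ZFTA was 1.91-fold higher in enzalutamide with PF-543 than in enzalutamide with ABC294640, at matched doses (log2 0.94, 95% interval 0.58 to 1.29, limma adjusted p = 0.0721, rank 19 of all genes by p). The lowest array of the first group, 13.65, was above the highest of the second, 13.13. The combinations differed from their inhibitor alone in opposite directions, a contrast that was not itself tested. ZFTA was higher by log2 0.76 in enzalutamide with PF-543 than in PF-543 (95% interval 0.40 to 1.11, limma adjusted p = 0.106) and differed by log2 -0.93 between enzalutamide with ABC294640 and the single ABC294640 array (95% interval -1.43 to -0.43, limma adjusted p = 0.348). The calls depended on the fit. The ZFTA F test passed in 3 alternatives and not in 21, and its pair of combinations passed in 3 and not in 22. Without enzalutamide with PF-543 replicate 1, ZFTA passed the F test (limma adjusted p = 0.0174) and 2 pairs. With a robust and trended prior ZFTA passed the F test (limma adjusted p = 9.88e-06) and 4 pairs, and CASP16P passed the F test (limma adjusted p = 0.0408). That prior called 1.51% of all genes by F and 0.469% of gene-by-pair tests.

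CASP16P showed the same contrasts with smaller differences. It was 1.51-fold higher in enzalutamide with PF-543 than in enzalutamide with ABC294640 (log2 0.60, 95% interval 0.27 to 0.93, limma adjusted p = 0.387), and the arrays did not overlap. Enzalutamide with PF-543 was above PF-543 by log2 0.46 (95% interval 0.13 to 0.79, limma adjusted p = 0.391) and enzalutamide with ABC294640 differed from the ABC294640 array by log2 -0.63 (95% interval -1.10 to -0.16, limma adjusted p = 0.517).

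**Figure D3:**
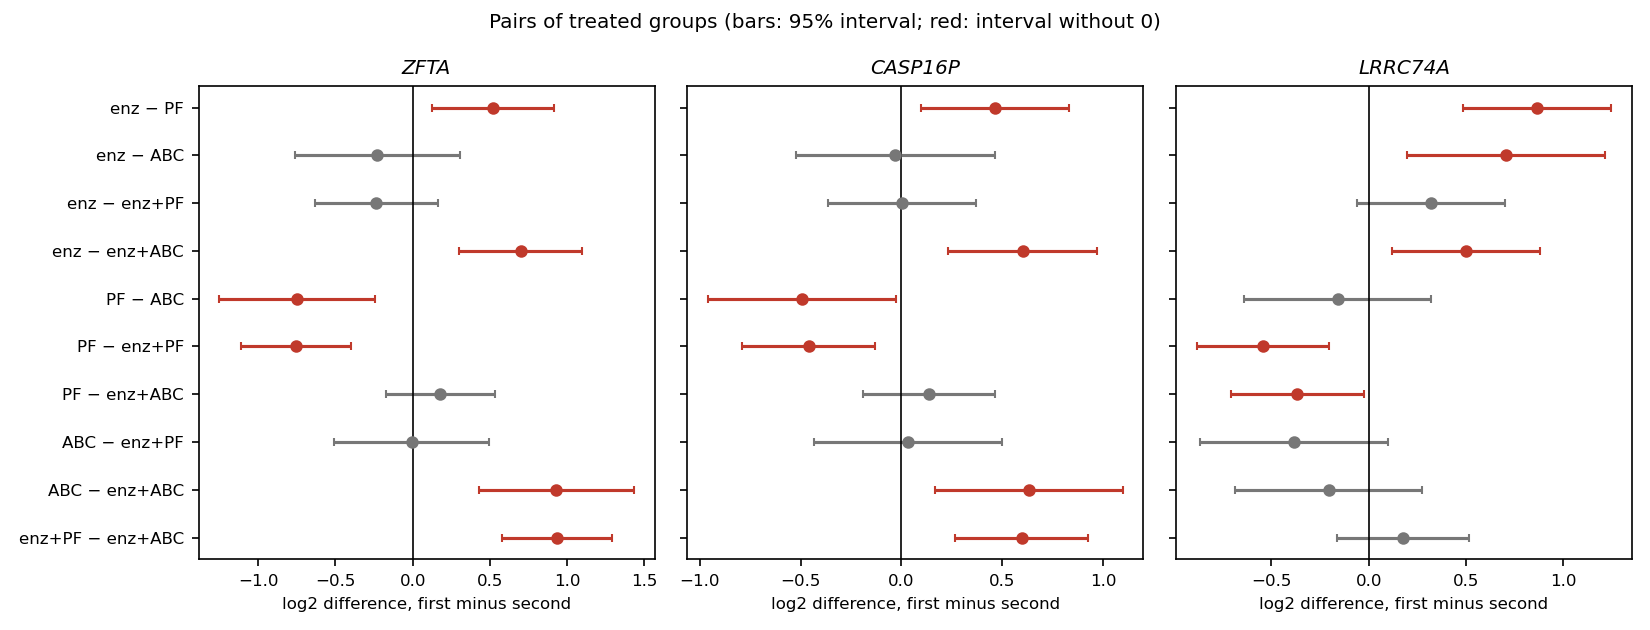
Log2 difference between treated groups, first minus second, for ZFTA, CASP16P and LRRC74A, with 95% intervals of the limma fit. Groups are abbreviated as enz (enzalutamide), PF (PF-543) and ABC (ABC294640), and red marks an interval without 0: 6 pairs for ZFTA, 6 for CASP16P and 5 for LRRC74A, none of which passed after adjustment over all genes.

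For the remaining genes fewer intervals left out 0, although the treated group means of USP26 spanned 0.93. USP26 was higher in enzalutamide than on the ABC294640 array by log2 0.93 (95% interval 0.21 to 1.64, limma adjusted p = 0.602) and than in enzalutamide with ABC294640 by 0.66 (95% interval 0.12 to 1.19, limma adjusted p = 0.669). FAM114A1 was higher in enzalutamide than on the ABC294640 array by 0.51 (95% interval 0.11 to 0.90, limma adjusted p = 0.606). TLK1 was higher on the ABC294640 array than in enzalutamide with ABC294640 by 0.40 (95% interval 0.04 to 0.76, limma adjusted p = 0.684). A p that misses the threshold does not show that the groups act alike, since differences up to the ends of these intervals are compatible with the data.

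Within the 12 treated arrays, ZFTA and CASP16P moved together. Of the 28 pairs of members, this one had the strongest relation (Pearson r = 0.94, permutation p = 4e-05, adjusted p = 0.00112; Spearman rho = 0.89, permutation p = 0.00029, adjusted p = 0.00812). Without the 2 arrays farthest from the CASP16P median r was 0.96, and on deviations from group means over 11 arrays it was 0.82. They lie on different chromosomes, and by the likeness measure used here each was the nearest gene to the other among all 17687 genes. That measure takes in the DMSO arrays, so the shared difference from DMSO, for which both were picked, enters it. DCAF4 and LRRC74A also moved together within treated cells, although they stood on opposite sides of DMSO (r = 0.84, permutation p = 0.00079, adjusted p = 0.0111; rho = 0.80, permutation p = 0.00267, adjusted p = 0.0374). Without the 2 farthest arrays r was 0.75, and on deviations from group means 0.68. The other 26 pairs had adjusted p of 0.0768 or more by either measure. Among them, ANKS1B with LRRC74A had r = 0.78 on deviations from group means, above the 0.68 of DCAF4 with LRRC74A. That 0.68 therefore does not set its pair apart. All members share the arrays, so array-wide effects enter each of these relations. The permutations shuffled the 12 treated arrays across groups, so differences between treated groups enter each permutation p too. Falls in PF-543 and rises in enzalutamide counted in the choice of members, and both groups are among these arrays. That choice therefore also enters r, rho and their permutation p. No p was computed for the deviations from group means.

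**Figure D4:**
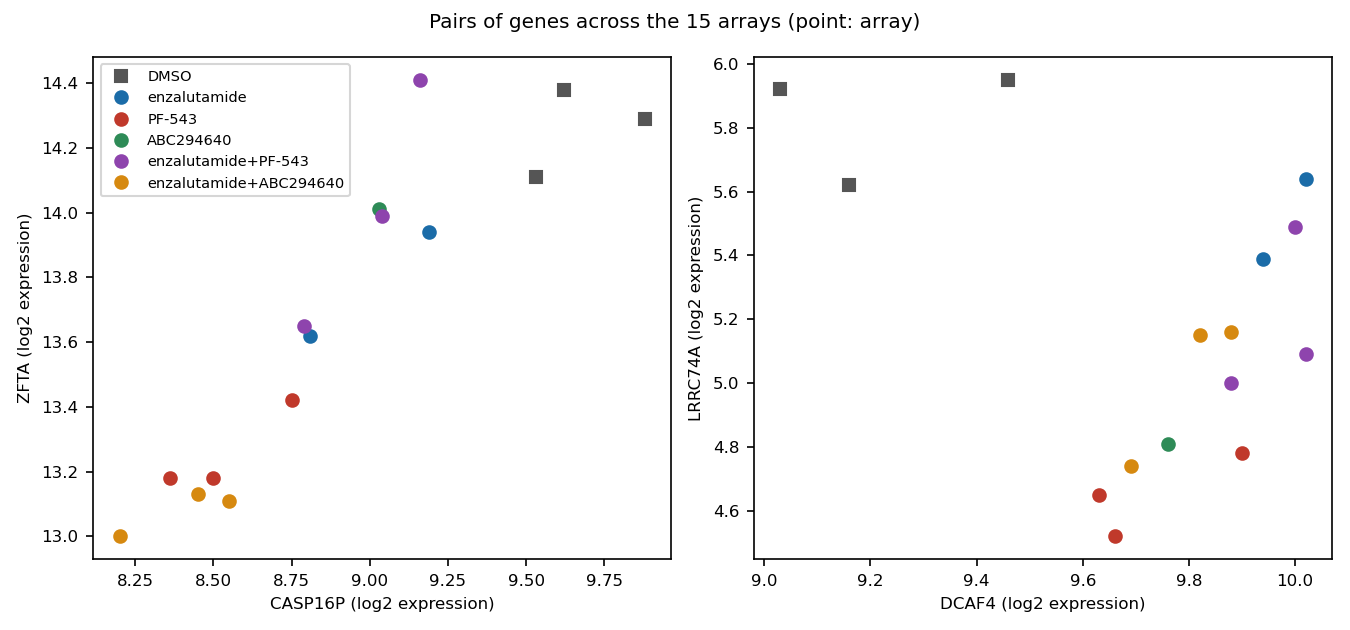
Log2 expression of ZFTA against CASP16P and of LRRC74A against DCAF4 on the 15 arrays, coloured by group, with DMSO as squares. Over the 12 treated arrays r was 0.94 and 0.84. The DMSO arrays extend the first relation and stand off the second.

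Likeness was the root mean square difference of log2 values centred on each gene's mean over all 15 arrays. The difference from DMSO, for which the members were picked, therefore enters it. The genes nearest to TLK1 were IRF2BP2 (0.18) and AGFG2 (0.18), those nearest to FAM114A1 were DLX2 (0.14) and RBP5 (0.16), and those nearest to DCAF4 were CAB39 (0.11) and TYW1 (0.14). ANKS1B was nearest to KRTAP27-1 (0.23) and OR10Q1 (0.25), LRRC74A to ZNF550 (0.22) and LRRK1 (0.24), and USP26 to CYBB (0.36) and LINC01630 (0.41). After ZFTA (0.19), CASP16P was nearest to PTPRN2 (0.26), and after CASP16P, ZFTA was nearest to CALML3 (0.21). The median distance to all genes ran from 0.35 for DCAF4 to 0.67 for USP26.

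Genes related to the members were read from lists chosen for kinship and complex membership. The closest relatives TLK2, FAM114A2, DCAF4L1, DCAF4L2, ANKS1A, CASP14, USP29, USP37 and LRRC74B passed in none of the 5 comparisons with DMSO (0 of 9 each; limma, adjusted over all genes). Of all genes 0.311% passed in enzalutamide, 0.565% in PF-543, 0% on the ABC294640 array, 2.02% in enzalutamide with PF-543 and 0.701% in enzalutamide with ABC294640. TLK2, the other Tousled-like kinase, was at log2 -0.06 to 0.23 where TLK1 was at 0.61 to 1.01. USP37, a deubiquitinase related to USP26, was at 0.14 to 0.26 and USP29 at -0.45 to 0.12, where USP26 was at -1.01 to -1.93. The members were picked for their distance from DMSO, so that they exceed their relatives follows from the choice. In addition USP29, DCAF4L1, DCAF4L2, CASP14 and LRRC74B had DMSO means of 4.32, 4.33, 3.71, 3.50 and 3.83, below the first quartile of signal in DMSO, and no probe set was judged against background.

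**Figure D5:**
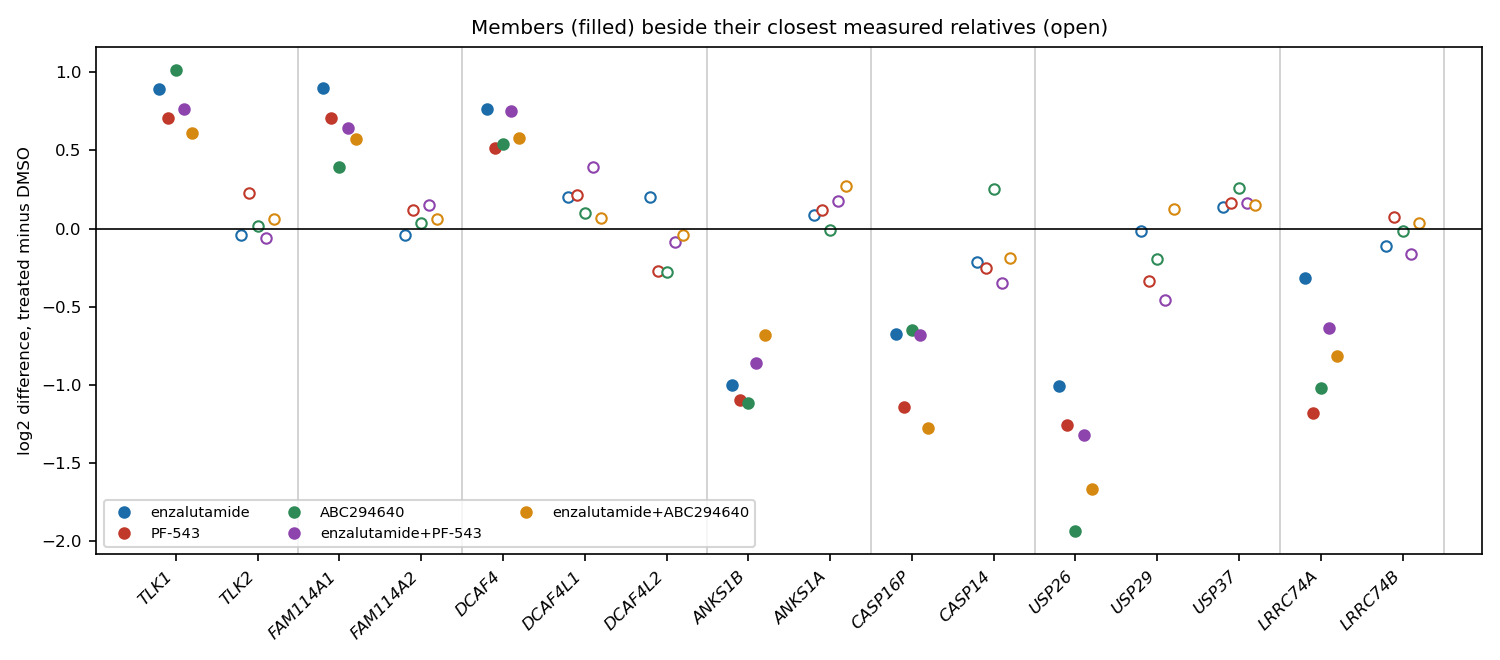
Log2 difference from DMSO in the 5 treated groups for members (filled points) and their closest measured relatives (open points), coloured by group; ZFTA has no listed relative. Relatives lie between -0.45 and 0.39. Members were picked for their distance from 0.

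Over all 6 lists, 4 of 96 measured genes (4.17%) passed against DMSO in at least 1 of the 5 comparisons, where 2.52% of all genes did. In enzalutamide with PF-543, 3 were lower by limma: the histone chaperone ASF1B, a TLK1 substrate (log2 -0.41, SE 0.09, adjusted p = 0.0461), DCAF8, another CUL4-DDB1 receptor (log2 -0.43, SE 0.09, adjusted p = 0.0375), and the deubiquitinase USP35 (log2 -0.77, SE 0.13, adjusted p = 0.0137). In PF-543 the deubiquitinase USP43 was higher (log2 0.50, SE 0.10, adjusted p = 0.0494 by limma). These 4 are named after their values were seen. On group means, none of the 3 lower genes was lower in this combination alone. ASF1B differed from DMSO by log2 -0.38 (SE 0.11) in enzalutamide and by -0.09 to -0.26 in the remaining groups. The group means of DCAF8 and USP35 differed from DMSO by log2 -0.27 to -0.43 and by -0.52 to -1.03, the latter on the ABC294640 array. DCAF8 and USP35 were among 3 of the 96 genes (3.12%) with all 12 treated arrays on one side of all 3 DMSO arrays, where 3.45% of all genes were. By list, 1 of 7 TLK1 partners and histone chaperones, 1 of 25 CUL4-DDB1 genes and 1 of 43 ubiquitin-specific proteases were lower in enzalutamide with PF-543, where 0.905% of all genes were, and 1 of the 43 was higher in PF-543, where 0.362% were. In the 11 caspases and the 8 ANKS family and postsynaptic genes none passed. The count of 4 was 0 without enzalutamide with PF-543 replicate 2 or 3, 1 without any one of the DMSO or PF-543 arrays, and 2 without either enzalutamide array, enzalutamide with PF-543 replicate 1, or enzalutamide with ABC294640 replicate 1 or 3.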

How the data were processed

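Biotin-labelled RNA of 15 samples was read on whole-transcript arrays. The authors summarised each probe set as a log2 value with RMA in Transcriptome Analysis Console 4.02, per the submitters' processing notes. For the annotation build, the sources used here give none. No normalization was added. Since RMA draws the arrays' distributions together, a shift common to most genes is removed or reduced in these values. The distributions were still not equal, with first quartiles of 4.65 to 4.69 in DMSO and 4.57 to 4.63 in treated cells. The platform annotation named 1 gene for 17709 of 21448 probe sets, several for 0 and none for 3739. The brightest probe set was kept for 20 genes with several, leaving 17687 genes. Groups came from the labels.

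Group means were fitted to all 15 arrays with limma 3.58.1 in R 4.3.3 (9 residual and 3.82 prior degrees of freedom), so the lone ABC294640 array is assumed to vary like the other arrays. The number of arrays limits the precision. Differences among treated groups were tested by a moderated F test and 10 pairwise contrasts, with Benjamini-Hochberg adjustment over all genes at 0.05. Correlations used 100000 permutations, two-sided, adjusted over 28 pairs. The fit was tested on simulated data in which some genes were raised in PF-543. The F test recovered 10% of genes raised by log2 0.5 and 89% of those raised by log2 1. For PF-543 against enzalutamide with PF-543 it was 27% and 92%, so smaller differences can be missed. Members, lists and tests were chosen with earlier results of these data known. The named genes were the members, their closest relatives, listed genes past the threshold in at least 2 contrasts or in the F test (none were), and the 2 genes most like each member. ASF1B, DCAF8, USP35 and USP43 fall outside this rule and were named after their values were seen. Alternatives were other normalizations, filters, priors, array weights, a replicate block and leaving out each array. Python 3.11.15 with matplotlib 3.10.9 made the plots.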

Additional observations from a re-analysis of the deposited data

How the results depend on the processing

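The count of members past the F test among treated groups was 0, and became 1 without the dimmest 25% of genes (ZFTA, limma adjusted p = 0.0463), 2 with a robust and trended prior, and 0 to 1 when 1 array was left out (1 without enzalutamide with PF-543 replicate 1). The count of member-by-pair calls was 0, and became 2 without the dimmest 25% of genes, 5 with the robust and trended prior (4 for ZFTA, 1 for LRRC74A), and 0 to 2 without 1 array (2 without enzalutamide with PF-543 replicate 1, 1 without its replicate 3). Both counts were 0 under quantile, cyclic loess and median normalization, with all probe sets, with array weights, and on the 12 treated arrays alone, where ZFTA had an F adjusted p of 0.156. The cause of these changes was not tested. The 4 related genes became 7 without the dimmest genes, 2 with all probe sets, 9 with the robust and trended prior, 0 on the arrays of the 2 groups compared, and 0 to 4 without 1 array. With the replicate number as a block, without the ABC294640 array, both member counts were 0 and the related genes 2. Arrays of the same number did not deviate together (mean correlation -0.003, highest 0.07, over 26 pairs). Deviations cancel within a group, so these correlations are not independent. They do not exclude that arrays of the same number shared a culture, on which the labels are silent. The members' mean differences from DMSO kept their sign in all alternatives run. The 6 genes without overlap numbered 6 to 7, or 5 of 7 without the dimmest genes, a filter that removed USP26. Leaving out arrays or genes cannot create overlap, so in those settings no remaining gene could lose its separation. The members were picked for their difference from DMSO, so neither result is support for it.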
